A study of Mus musculus with 8 samples.

Results

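The cluster of miR-143 and miR-145 is represented by 4 mature miRNAs, the 2 arms of each of its 2 hairpins, of 1281 mature miRNAs (4 of 1418 entries) in the tables. They were chosen by name: mmu-miR-143-3p and mmu-miR-145a-5p, the more abundant arms, here called guide arms, and mmu-miR-143-5p and mmu-miR-145a-3p, the scarcer arms, here called passenger arms. Small RNA was sequenced from MC3T3 E1 sc4, a cloned pre-osteoblast line derived from mouse calvaria (strain C57BL/6 in the labels, passage 10 to 15). The cells were undifferentiated at day 0 or had been kept with ascorbic acid and β-glycerol phosphate up to titled days 6, 10, 17 and 24. Equal amounts of RNA from 3 biological samples were pooled for the library of each day, so no day has a replicate and all 5 libraries come from 1 clone. The other 3 libraries came from calvaria, the parietal and frontal bones, of 2 to 3 days old C57BL/6 female mice that carry Prrx1-Cre, taken after a short collagenase and trypsin digestion. Prrx1-Cre is a transgene expressed in limb bud and part of the cranial mesenchyme. All 3 calvaria libraries share it and no untransgenic calvaria is among the samples. Whether each calvaria library is a separate animal is not said in the labels, and p-values measure only the spread between these samples.

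miR-143 and miR-145 are made from one primary transcript and are the best known miRNAs of vascular smooth muscle, where serum response factor with myocardin drives their expression and where they favour the contractile state. They are also abundant in fibroblasts and other mesenchymal cells. In osteoblasts both have been reported to restrain differentiation by targeting Sp7 (Osterix), a transcription factor that bone formation requires. A hairpin is cut into a 5p and a 3p arm, and usually one of them, the guide, is kept in the silencing complex.

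Both hairpins lie on the minus strand of chromosome 18 of GRCm38 (mm10), Mir143 at 61649196 to 61649258 and Mir145a at 61647825 to 61647894, with 1301 bases between them. GENCODE M21 gives each hairpin as an exon of its own miRNA gene and no other gene over it. Its Carmn, a long non-coding RNA on the same strand, spans 61649625 to 61665537 and ends 366 bases before Mir143. In RefSeq (GRCm38.p6), Carmn spans 61645878 to 61665538 and covers both hairpins. A relative of miR-145a, miR-145b, has its hairpin elsewhere on chromosome 18 (69022199 to 69022273) and held 0 to 3 counts per library. Of the 32 values of the 4 arms, 30 were whole counts. The exceptions were miR-145a-5p at day 24 (6560.5 counts) and in calvaria 1 (1390.5 counts), the libraries where miR-145b also had a fractional value.

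Library totals were 2742368 to 4031962 counts for MC3T3 and 1183011 to 2023036 for calvaria. Levels are given as RPM, each count divided by its library total and multiplied by one fixed factor for all libraries, and intervals are exact 95% Poisson intervals. Reads carried no molecular identifiers, so intervals cover counting error only. The day 0 library stood apart: 45.55% of it was miR-21a-5p. That miRNA made up 11.23% to 20.14% of the other MC3T3 libraries and 5.41% to 9.74% of the calvaria ones. A share this large leaves less of the total to every other miRNA, which bears on RPM at day 0. TMM scaling, which sets libraries level on the bulk of their miRNAs, gave that library a factor of 0.694, against 0.953 to 1.21 elsewhere.

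Mature sequences from RefSeq (GRCm38.p6) are shown for 6 miRNAs whose profile over the libraries was among the nearest to that of a cluster arm, and for miR-21a-5p, the miRNA on which the scaling of the day 0 library turns. Capitals mark the seed, bases 2 to 8, which sets the choice of targets.
let-7b-5p: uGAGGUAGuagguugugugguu
let-7c-5p: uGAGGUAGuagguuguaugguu
miR-100-5p: aACCCGUAgauccgaacuugug
miR-423-5p: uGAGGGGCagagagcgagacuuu
miR-674-3p: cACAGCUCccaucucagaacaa
miR-28a-5p: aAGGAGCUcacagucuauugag
miR-21a-5p: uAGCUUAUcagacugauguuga
let-7b-5p (chr15:85707325-85707346, plus strand) and let-7c-5p (here its copy at chr15:85706616-85706637, plus strand) share a seed and lie close together. Among the sequences shown, the others each have a different seed. They lie on chromosomes 9 (miR-100-5p), 11 (miR-423-5p and miR-21a-5p), 2 (miR-674-3p) and 16 (miR-28a-5p).

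miR-143-3p was among the most abundant miRNAs in every library. mmu-miR-143-3p stood at 87473 RPM at day 0, 98901 at day 6, 97123 at day 10, 117479 at day 17 and 111964 at day 24. The 3 calvaria libraries held 52572, 50332 and 64103 RPM. Every MC3T3 library lay above every calvaria library, and the lowest MC3T3 value was 1.36 times the highest calvaria value. Its rank among mature miRNAs was 1 at day 17, 2 on the other MC3T3 days, and 5, 7 and 4 in calvaria 1, 2 and 3. The order of RPM levels was calvaria, day 0, day 10, day 6, day 24 and day 17. Days 10 and 6, and days 24 and 17, lay closer together than the calvaria SD of 7390 RPM.

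mmu-miR-145a-5p, the guide of the second hairpin, was far scarcer in reads. Its RPM was 1306 at day 0, 2562 at day 6, 2547 at day 10, 2897 at day 17 and 2392 at day 24, and 1175, 987 and 1106 in the calvaria libraries. The groups did not overlap, but the day 0 library lay close to calvaria, at 1.11 times the highest calvaria value in RPM and 1.76 times after TMM scaling. The order was calvaria, day 0, day 24, day 10, day 6 and day 17. The intervals of days 10 (2491 to 2603) and 6 (2506 to 2618) overlapped.

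Of the passenger arms, mmu-miR-145a-3p held 473.5, 743, 547, 674 and 673 RPM over the 5 days and 281, 300.5 and 344 RPM in calvaria. Its calvaria values were all below its lowest day, day 0, and days 24 and 17 had overlapping intervals. miR-143-5p held 246, 272, 216, 212 and 211 RPM over the 5 days and 131, 137 and 151 RPM in calvaria. Here too calvaria lay below all days, while the intervals of days 10, 17 and 24 overlapped one another. No arm had a count of 0 in any library, and the smallest value was 155 counts for miR-143-5p in calvaria 1.

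Together the 4 arms took 5.72% ± 0.746 of calvaria counts (SD, n = 3) and 10.58% ± 1.26 of MC3T3 counts (SD over the 5 days, which are not replicates of one state). miR-143-3p supplied 96.51% to 97.74% of the cluster's reads in every library, so the total is close to a measure of that arm. Reads of different miRNAs also depend on how well each RNA is ligated and amplified, so a ratio between different arms in one library is a ratio of reads and not of molecules.

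**Figure D1:**
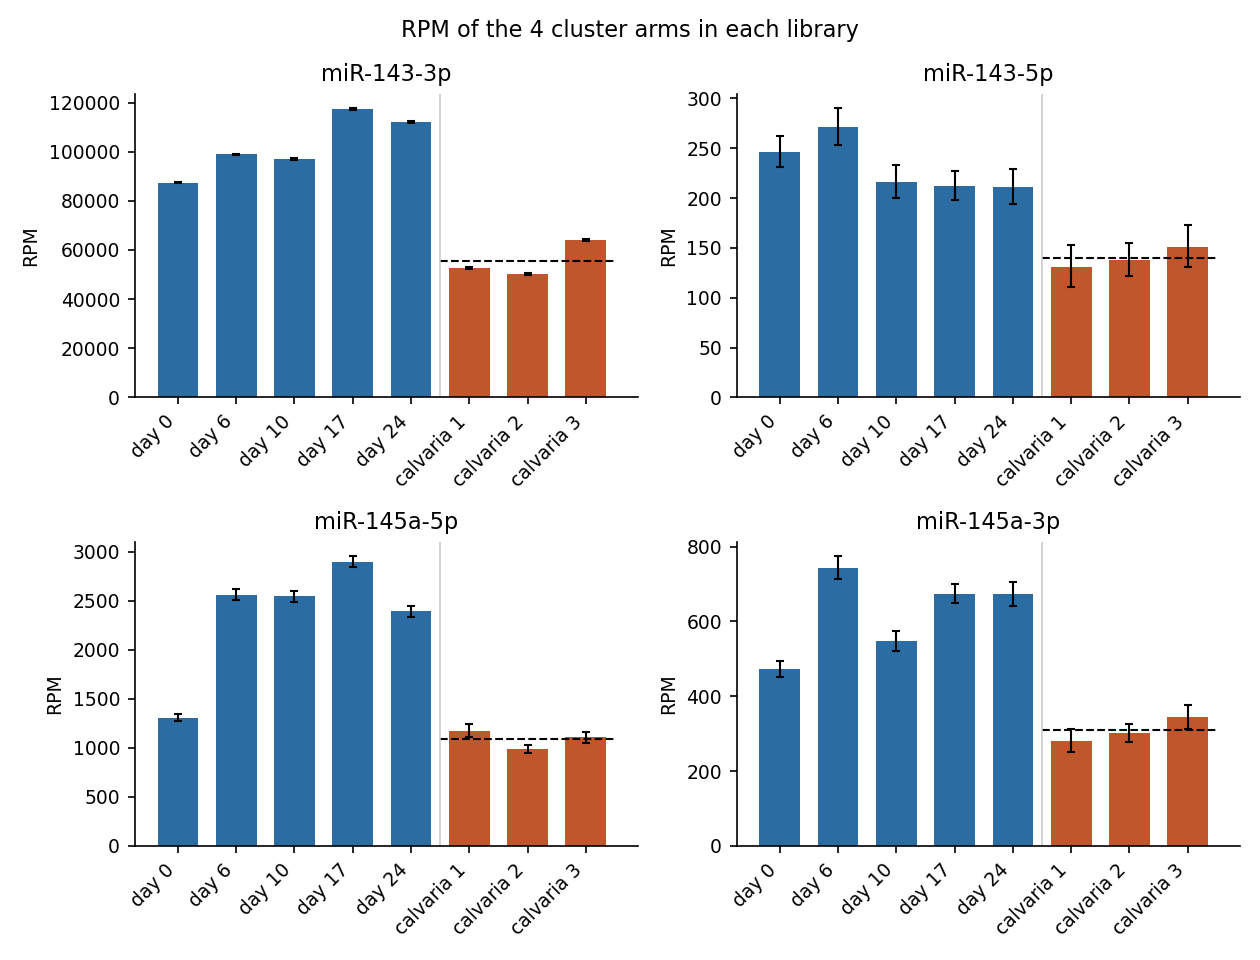
RPM (vertical axis, from 0) of each cluster arm in the 8 libraries, MC3T3 days in blue and calvaria in orange; bars are single libraries, error bars exact 95% Poisson intervals of the count and the dashed line the calvaria mean. In all 4 panels each calvaria bar is lower than each MC3T3 bar, and the ratio of the lowest MC3T3 bar to the highest calvaria bar is smallest for miR-145a-5p, at 1.11 (1306 RPM at day 0 and 1175 RPM in calvaria 1).

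Bone tissue and the cultured line were compared over 3 and 5 libraries. The test took the 5 MC3T3 days as a single group, though they are not replicates of a single state. Its SE and p-values therefore hold the spread over days and not that between the biological samples pooled for each day. All 4 arms were lower in calvaria. In RPM the MC3T3 mean was 1.84 times the calvaria mean for miR-143-3p (102588 ± 12058 over 5 days against 55669 ± 7390 over 3 libraries, SD). The same figure was 2.15 for miR-145a-5p (2341 ± 607 against 1089 ± 95.5), 2.02 for miR-145a-3p (622 ± 109 against 308 ± 32.4) and 1.65 for miR-143-5p (231 ± 26.8 against 139.9 ± 10.3). In the edgeR quasi-likelihood test with TMM factors and Benjamini-Hochberg adjustment over 551 entries, the log2 difference (calvaria minus MC3T3) was -1.04 ± 0.19 (SE) for miR-143-3p with an adjusted p of 0.000909. It was -1.22 ± 0.19 (adjusted p = 0.00036, edgeR) for miR-145a-5p, -1.14 ± 0.19 (0.000445) for miR-145a-3p and -0.90 ± 0.24 (0.00844) for miR-143-5p.

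Calls in this comparison were common: 66.4% of all 551 entries passed, 33.8% (186) lower and 32.7% (180) higher in calvaria. Every MC3T3 library lay above every calvaria library for 21.9% of 471 mature miRNAs in RPM and for 26.1% in TMM-scaled CPM, as it did for the 4 cluster arms on both scales. The sizes of the cluster's differences were moderate in this setting: 180 of 551 entries (32.7%) had a more negative log2 difference than miR-143-3p, and 140 (25.4%) a more negative one than miR-145a-5p.

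The size of the difference depended on the scaling, the direction did not. TMM put the median log2 difference over the whole table at -0.13, library totals at 0.01, upper quartile factors at -0.61 and DESeq2 size factors at 0.18. The split of calls moved from 180 higher and 186 lower to 216 and 128 with DESeq2 size factors and to 143 and 251 with upper quartile factors. Relative to each median, miR-143-3p was at -0.90 with all of these scalings, miR-145a-5p at -1.08 to -1.12, miR-145a-3p at -1.01 to -1.03 and miR-143-5p at -0.74 to -0.76. miR-143-5p lost its call without calvaria 1 (log2 -0.71, adjusted p = 0.0732, edgeR) or calvaria 2 (-0.73, 0.0707) and ranged from -0.58 (0.049) with DESeq2 size factors to -1.38 (0.000866) with upper quartile factors. The other 3 arms kept their call under all 20 alternatives. Without the day 0 library the differences were -0.94 for miR-143-3p, -0.70 for miR-143-5p, -1.26 for miR-145a-5p and -1.09 for miR-145a-3p. All 4 passed (adjusted p from 6.56e-05 to 0.00324, edgeR), in a fit that called 202 of 535 entries higher and 187 lower in calvaria.

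All 4 arms were also lower in calvaria when it was compared with the early or the late days of culture alone. Against days 0 and 6 alone, miR-143-3p was at -0.99 (adjusted p = 0.0107, edgeR) and against days 17 and 24 alone at -1.08 (0.00115). miR-145a-5p was at -0.97 (0.00887) against the early pair and -1.32 (0.000278) against the late pair. miR-143-5p had the opposite order, with -1.14 (0.0127) and -0.63 (0.0183). Calls were common here too: against the early pair 198 of 563 entries were higher and 172 lower in calvaria. Against the late pair 222 of 549 were higher and 168 lower. The difference between early and late comparisons was not tested, and both use the same calvaria libraries.

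**Figure D2:**
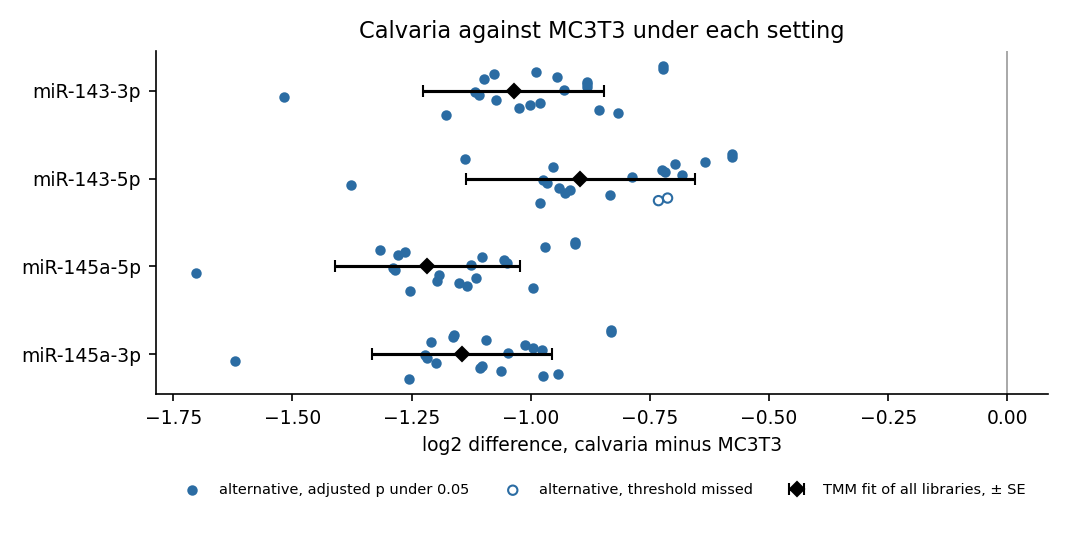
Log2 difference of calvaria minus MC3T3 (horizontal axis) for each arm; the diamond is the TMM fit of all 8 libraries with its SE and each circle is 1 of 20 alternatives, filled where the adjusted p was under 0.05. All values are negative, and the 2 open circles are miR-143-5p without calvaria 1 and without calvaria 2.

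Calvaria is a mixed tissue, and in bulk libraries fewer cells of a type and less RNA per cell cannot be told apart. Tissue, transgene and digestion differ together from the cultured line and cannot be told apart either. As a background for the marker counts, 39.5% of the 471 mature miRNAs tested had every calvaria library above every MC3T3 library in RPM. Endothelial miR-126-3p and miR-126-5p together reached 9028 to 20323 RPM in calvaria and 6.2 to 19 RPM in MC3T3, with both of 2 markers higher in every calvaria library. Of 6 blood cell markers in the table, 5 were higher in every calvaria library, with sums of 240.5 to 362 RPM against 38.7 to 111 RPM. Most of the MC3T3 sum was the remaining marker, miR-486-5p (36.5 to 107 RPM, against 47.8 to 59.6 RPM in calvaria). Red cell miR-451a was at 0.99 RPM or less in MC3T3, and miR-144-5p was at 0 there. Cartilage markers summed to 61235 to 111611 RPM in calvaria and 18218 to 28775 RPM in MC3T3 (4 of 4 higher). Striated muscle markers overlapped (283 to 642 RPM against 213 to 574 RPM). Of these markers, 3 of 7 were higher in every calvaria library, and miR-208a-3p and miR-208b-3p were at 0 in all libraries. The overlap came from day 0 alone, as the sum on later MC3T3 days was 213 to 217 RPM. miR-206-3p reached 556 RPM in MC3T3 and 203 RPM in calvaria, with overlapping ranges. Nervous system markers summed to 603 to 685 RPM against 329 to 460 RPM (2 of 4 higher). Most of this was miR-128-3p (533 to 608 RPM in calvaria, 272 to 446 RPM in MC3T3). miR-124-3p was at 0 in MC3T3 and at 0 to 0.99 RPM in calvaria. Epithelial markers summed to 17.3 to 29.6 RPM against 2.24 to 5.46 RPM (2 of 6 higher), with miR-429-3p at 0 in MC3T3 and at 0 to 3.38 RPM in calvaria. Within calvaria, library 3 had the highest miR-143-3p and the highest endothelial (20323 RPM), blood cell (362 RPM) and striated muscle (642 RPM) sums. Its cartilage sum was the lowest (61235 RPM). The nervous system sum was highest in calvaria 2 and the epithelial sum in calvaria 1. Both passenger arms were also highest in library 3, but miR-145a-5p was highest in calvaria 1 (1175 RPM, against 1106 RPM in calvaria 3). The part of these cell types in the cluster's levels was not tested.

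Whether the cluster moves with osteogenic culture was asked with a linear trend over the 5 MC3T3 days. No arm passed: the fitted log2 change over 24 days was 0.11 ± 0.32 (SE, adjusted p = 0.851, edgeR quasi-likelihood test) for miR-143-3p and 0.50 ± 0.36 (0.422) for miR-145a-5p. It was 0.12 ± 0.35 (0.851) for miR-145a-3p and -0.57 ± 0.38 (0.393) for miR-143-5p. None of the 4 had an unadjusted p under 0.05 (lowest 0.166), and none was called under any of the 16 alternatives, among them DESeq2 and limma. Of all 469 entries tested, 2.99% (14) were called, 1.28% rising and 1.71% falling, so few miRNAs passed this linear trend. More passed in the same libraries on a log2(day + 1) scale, as given below. Each day has 1 library. The median change of all entries was -0.12.

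The course of each arm between days depended on how the day 0 library was scaled. In RPM, miR-143-3p at day 24 was 1.28 times its day 0 level (95% interval 1.27 to 1.29, counting error only), but 0.932 times after TMM scaling and 0.801 times with miR-21a-5p left out of the total. miR-145a-5p stood at 1.83 (1.77 to 1.90), 1.33 and 1.15 times its day 0 level on these scales, above 1 on all 3. miR-145a-3p stood at 1.42 (1.33 to 1.52), 1.04 and 0.889 times. miR-143-5p stood at 0.857 (0.772 to 0.951), 0.624 and 0.537 times, below 1 on all 3. Thus miR-145a-5p and miR-143-5p kept the sign of their change from day 0 to day 24 on these scales, while that of the other 2 arms turned with the scale.

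From day 6 to day 24 the ratio in RPM was 1.13 (1.13 to 1.14) for miR-143-3p, 0.934 (0.904 to 0.965) for miR-145a-5p, 0.906 (0.852 to 0.963) for miR-145a-3p and 0.777 (0.698 to 0.865) for miR-143-5p. TMM scaling put these at 1.44, 1.19, 1.15 and 0.987. As a description of variability, the SD of log2 TMM-scaled CPM over the 5 days was 0.25 for miR-143-3p, 0.23 for miR-145a-5p, 0.14 for miR-145a-3p and 0.32 for miR-143-5p. The median over 178 miRNAs with a mean of at least 100 RPM was 0.36, and 50, 43, 8 and 76 of them had a smaller SD than these arms in that order. In RPM the SDs were 0.17, 0.45, 0.26 and 0.16, with 14, 94, 36 and 12 of the 178 smaller and a median of 0.42. The order of the arms therefore changed with the scale, and miR-145a-5p lay below the median in TMM-scaled CPM and above it in RPM.

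**Figure D3:**
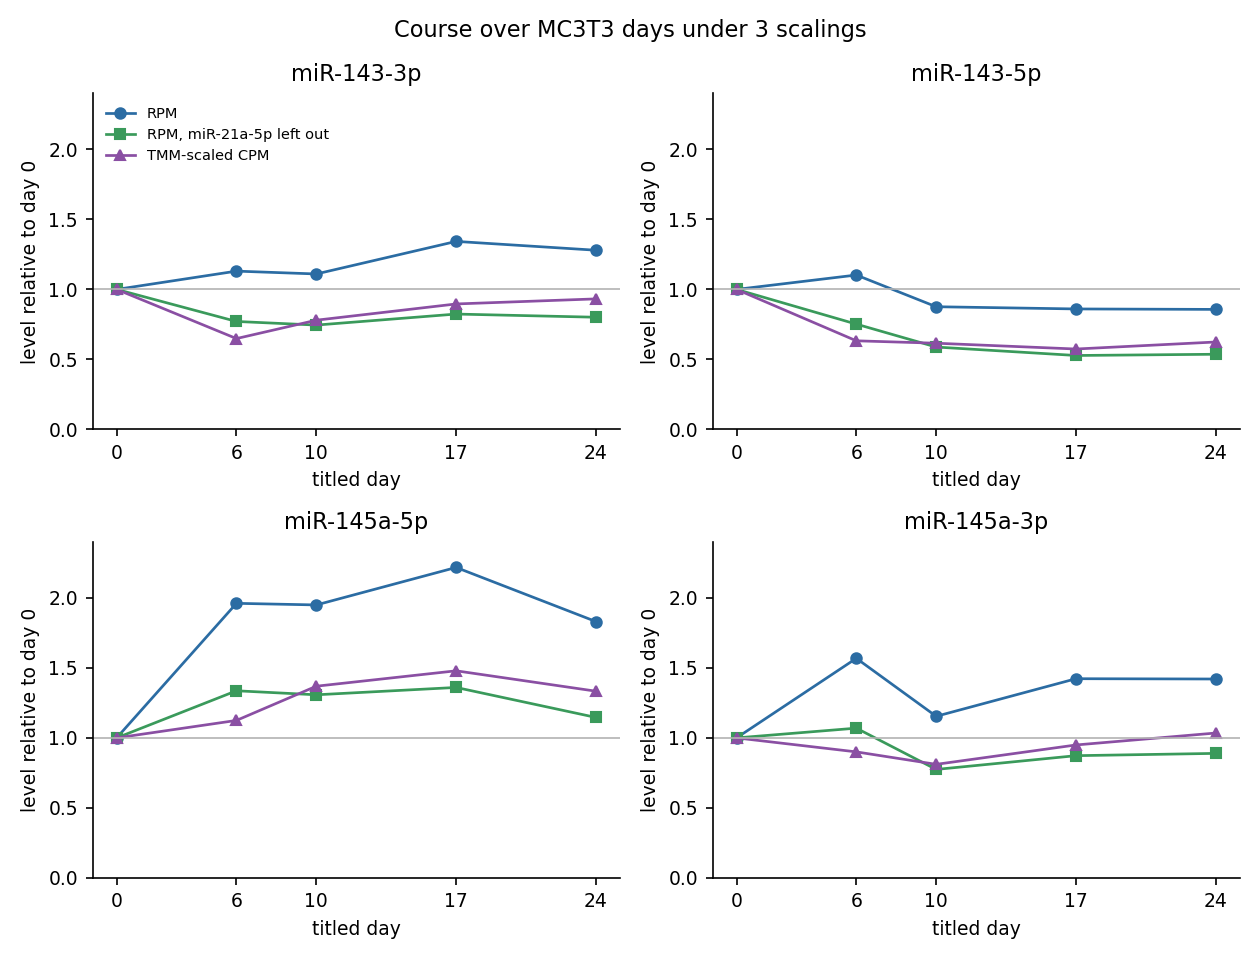
Level of each arm relative to day 0 (vertical axis, from 0) against the titled day in MC3T3, as RPM, as RPM with miR-21a-5p left out of the total and as TMM-scaled CPM; each point is 1 library. At day 24 miR-143-3p is at 1.28, 0.801 and 0.932 on these scales, and miR-145a-5p is above 1 on all of them.

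Ratios between arms counted in the same library are free of the scaling. The ratio of the guide arms, miR-143-3p over miR-145a-5p, was 67 (95% interval 65.2 to 68.8, exact binomial, counting error only) at day 0. On the later days it was 38.6, 38.1, 40.6 and 46.8 (day 24, 45.7 to 48), and 44.7, 51 and 58 in the calvaria libraries. Day 0 was thus the highest of the 8 and days 6, 10 and 17 the lowest, with calvaria in between and overlapping day 24. The passenger arms shared the high value at day 0 but not the later course: miR-143-5p over miR-145a-3p was 0.52 (0.481 to 0.562) at day 0, 0.366, 0.395, 0.315 and 0.314 on the later days, and 0.467, 0.457 and 0.439 in calvaria. This ratio was lowest on days 17 and 24, and calvaria lay above all days after day 0. The order is partly within counting error. All calvaria intervals (0.371 to 0.519 in calvaria 3) overlapped that of day 10 (0.361 to 0.432). The interval of day 6 (0.338 to 0.396) overlapped those of days 17 and 24. For both ratios the day 0 library therefore held more miR-143 per miR-145a than any later day, on either arm, beyond counting error. With 1 library per day this difference has no replicate check.

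The arm ratio of the first hairpin, miR-143-3p over miR-143-5p, was 355 (334 to 378) at day 0 and 364 at day 6. It was 450 (417 to 486), 554 and 530 (489 to 576) on days 10, 17 and 24. Calvaria held 401, 366 and 424. The 2 earliest days were the lowest of the MC3T3 days, and the calvaria libraries lay between them and days 17 and 24. All calvaria intervals (326 to 414 in calvaria 2) overlapped those of days 0 and 6 (day 6, 341 to 390). For the second hairpin, miR-145a-5p over miR-145a-3p was 2.76 (2.62 to 2.91) at day 0. On days 6, 10, 17 and 24 it was 3.45, 4.66 (4.42 to 4.91), 4.3 and 3.56, and in calvaria 4.19, 3.28 and 3.22. Day 0 was the lowest here, and day 10 the highest. The interval of day 10 overlapped those of day 17 (4.12 to 4.49) and calvaria 1 (3.71 to 4.73). That of day 0 overlapped calvaria 3 (2.90 to 3.58).

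None of the 4 ratios differed between calvaria and MC3T3 in a two-sided exact permutation test over 3 and 5 libraries, whose smallest possible p is 0.0357. The log2 difference (calvaria minus MC3T3) was 0.17 for miR-143-3p over miR-145a-5p (exact p = 0.429, adjusted over the 4 ratios 0.619), with a 95% interval from the same permutations of -0.58 to 0.60. It was 0.28 (-0.24 to 0.57) for miR-143-5p over miR-145a-3p (exact p = 0.179, adjusted 0.619). It was -0.16 (-0.59 to 0.25) for the arms of miR-143 (exact p = 0.464, adjusted 0.619) and -0.06 (-0.53 to 0.60) for those of miR-145a (exact p = 0.75, adjusted 0.75). The intervals leave room for a difference of up to 0.6 log2 units in either direction for some pairs, so they do not show that the arms were lowered to the same extent.

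**Figure D4:**
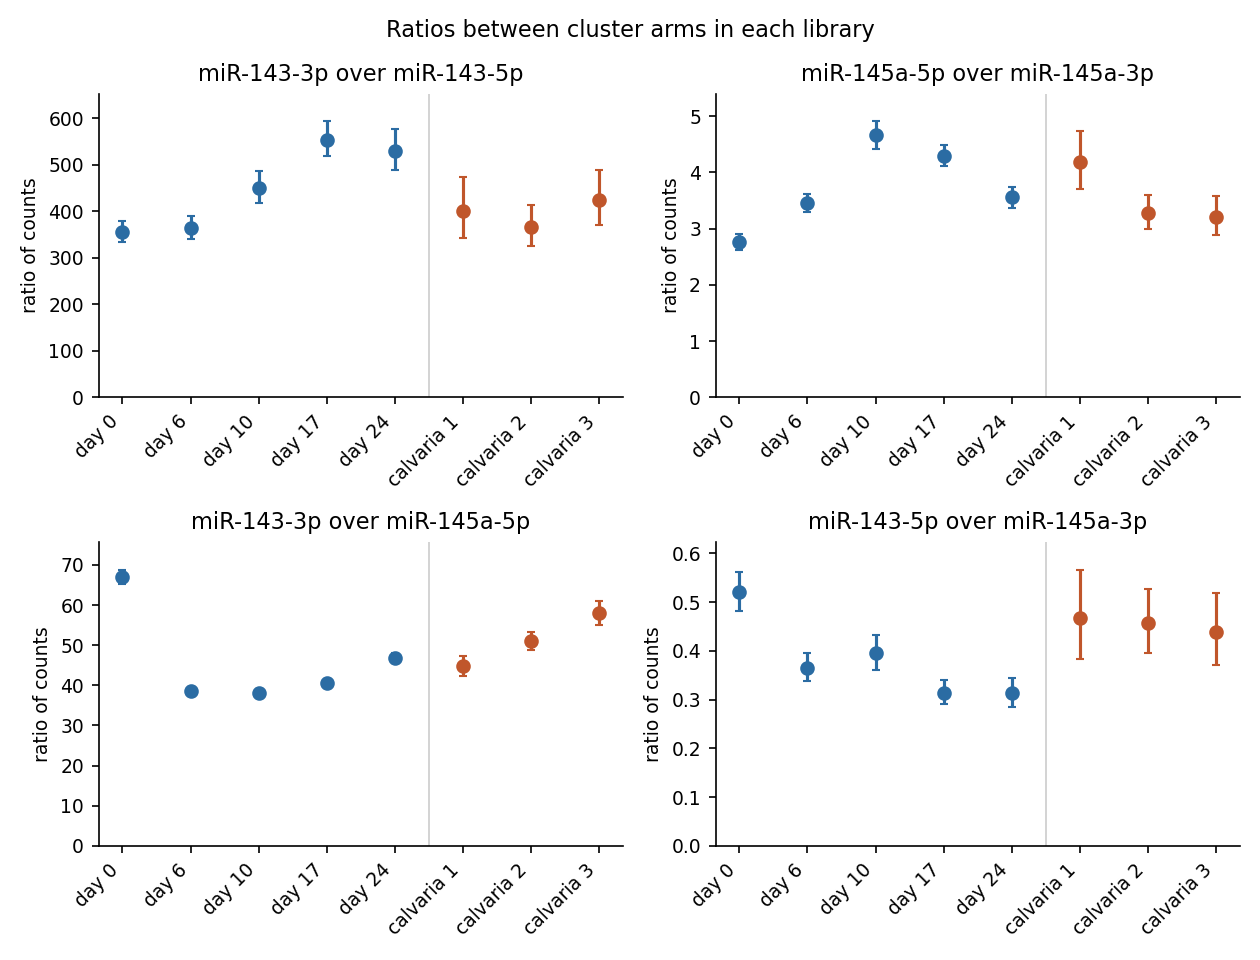
Ratio of counts between pairs of cluster arms (vertical axis, from 0) in each library, MC3T3 days in blue and calvaria in orange; error bars are exact 95% binomial intervals. The guide-arm ratio is 67 at day 0 and 38.1 to 46.8 on later days, and calvaria values overlap the MC3T3 range in all 4 panels.

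Other hairpins give a scale for these ratios. Besides the cluster, 29 hairpins with 1 entry per arm had at least 50 counts on both arms in every library. The mean log2 ratio of the abundant arm to the scarce arm was 8.73 for mir-143, and 1 of the 29 was more lopsided. For mir-145a it was 1.86, and 20 of 29 were more lopsided (median 2.86). The minimum on both arms leaves out very lopsided hairpins unless their abundant arm has very many reads. The ranks of lopsidedness therefore depend on this filter and on abundance. The change from day 0 to day 24 was 0.58 log2 for mir-143 and 0.37 for mir-145a, against a median size of 0.48 in the others. Between materials, 24 of the 29 hairpins had a larger shift in arm ratio than mir-143 and 25 a larger one than mir-145a (median size 0.31). These are descriptions of the same 8 libraries and carry no test.

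The miRNAs with the most similar profile were found by the root mean square (RMS) difference of centred log2 levels over the 8 libraries, a measure in which the scaling of a library drops out. For miR-143-3p the closest profile was that of its cluster partner miR-145a-3p (RMS 0.15), nearer than any of 174 other miRNAs, the first of which were miR-669c-5p (0.207), miR-674-3p (0.264), let-7b-5p (0.266), miR-100-5p (0.269) and miR-423-5p (0.272). The converse held for miR-145a-3p, whose nearest profile outside the cluster was miR-669c-5p (0.196), then miR-423-5p (0.238), miR-125b-5p (0.249), miR-28a-5p (0.256) and let-7b-5p (0.272). The guide arm miR-145a-5p was closer to miR-669c-5p (0.143), let-7b-5p (0.204), let-7c-5p (0.213) and miR-467e-5p (0.214) than to its own passenger arm (0.236) and miR-143-3p (0.271), and miR-423-5p followed at 0.274. Its distance to miR-143-5p (0.419) was the largest within the cluster. miR-143-5p was closest to miR-100-5p (0.153), followed by miR-27a-5p (0.212), miR-674-3p (0.224), miR-361-3p (0.229), its own guide arm (0.231) and miR-28a-5p (0.245). let-7b-5p and let-7c-5p share a seed, as their sequences show. The median RMS of the 174 was 0.79 to 0.85. miR-669c-5p, which stands among the nearest of 3 arms, had a calvaria mean of 305 ± 21.6 RPM (SD, n = 3) and an MC3T3 mean of 597 ± 108 RPM over 5 days. let-7b-5p held 4396 ± 582 and 9220 ± 2298 RPM in the same groups.

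Other miRNAs known from smooth muscle were set beside the cluster, on counts summed per mature miRNA. In that fit 64.1% of 471 miRNAs were called, 35.5% (167) higher and 28.7% (135) lower in calvaria, with a median log2 difference of 0.06. All 4 cluster arms were lower, with a median of -1.15. Of 5 miRNAs linked to the contractile state, 4 were tested, and 2 were higher, 1 was lower and 1 did not pass (median 1.28). miR-1a-3p (1.99, adjusted p = 0.00113, edgeR) and miR-133a-3p (2.99, 3.9e-05), both also markers of striated muscle, were higher in calvaria, with 275 ± 93.9 against 61.8 ± 28.3 RPM and 37.1 ± 11.6 against 4.17 ± 1.81 RPM. miR-10a-5p, encoded in a Hox cluster, was lower by far (-5.83, 1.41e-07), and miR-18a-5p was at 0.57 (0.3). miR-204-5p did not reach the count filter, with 26.2, 23.7 and 5.21 RPM in calvaria and at most 2.85 RPM in MC3T3.

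Of 7 miRNAs linked to the proliferative state all were tested, and 4 were lower, 1 was higher and 2 did not pass (median -1.89). miR-21a-5p (-1.89, adjusted p = 0.0127, edgeR), the cell cycle regulators miR-221-3p (-2.15, 4.01e-06) and miR-222-3p (-2.32, 2.85e-05), and miR-31-5p (-7.23, 1.16e-07) were lower in calvaria. miR-146a-5p, which damps inflammatory signalling, was higher (3.15, 0.000681), while miR-24-3p (0.02, 0.913) and miR-26a-5p (-0.06, 0.806) did not pass. With day, 0 of the 4 contractile miRNAs tested passed in the edgeR test, and of the 7 proliferative ones miR-146a-5p rose (3.22 ± 0.59, adjusted p = 0.0474). In that fit 2.3% of 391 miRNAs were called, 1.02% rising and 1.28% falling. Within either list, therefore, members were found on both sides of the MC3T3 level, while the 4 cluster arms were all on the lower side in calvaria. The 4 arms come from the same primary transcript, so their shared direction does not count as that of 4 separate miRNAs.

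**Figure D5:**
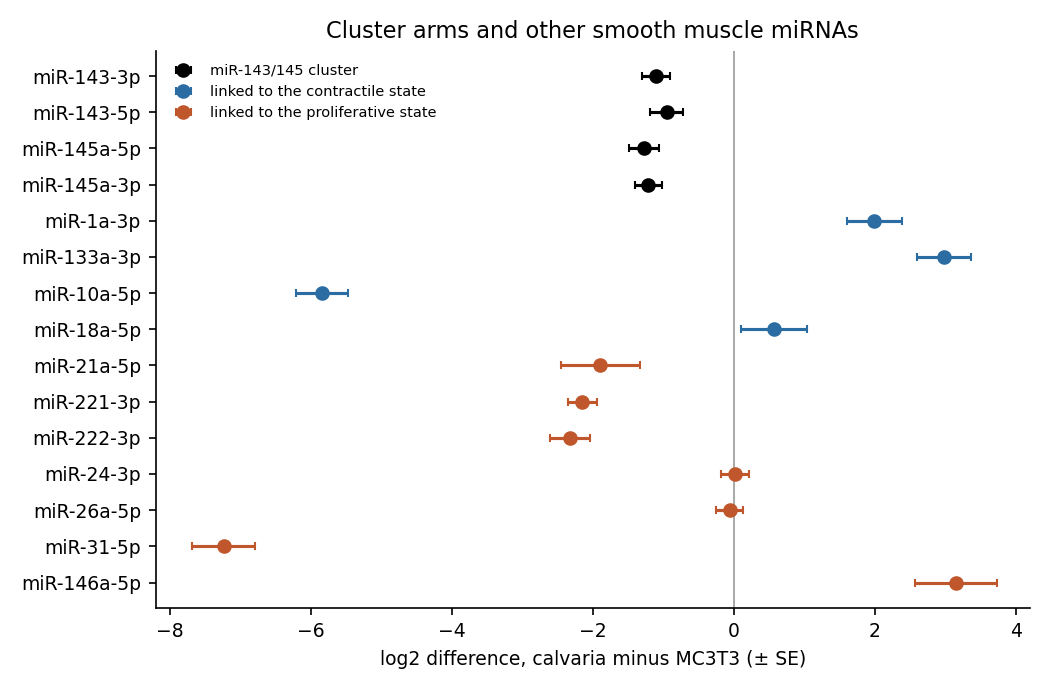
Log2 difference of calvaria minus MC3T3 (horizontal axis, points with SE) for the cluster arms and the other smooth muscle miRNAs tested, all from the fit on counts summed per mature miRNA. The 4 cluster arms lie between -1.28 and -0.95, and the other miRNAs range from -7.23 (miR-31-5p) to 3.15 (miR-146a-5p).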

How the data were processed

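Per the labels' protocols, NEBNext Small RNA libraries were made from 5 MC3T3 and 3 calvaria samples. Each row of the deposited raw table, of estimated counts, is 1 mature arm of 1 precursor. The deposited normalized table holds RPM, equal to the raw value over the library total within 0.013 RPM. cutadapt 0.9.5, Bowtie 0.12.7 and mm10 are named, without roles, in the submitters' processing notes. No source used here names the quantifier. Each MC3T3 column name carries a day 3 lower than the matching title, and days follow the titles. The column names of the differentiated MC3T3 libraries also carry the mark 'veh', which that of the undifferentiated library lacks. The meaning of this mark is not given. It divides the MC3T3 libraries in the same way as differentiation does. Whether it bears on contrasts with the undifferentiated library was not tested.

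Expected counts were rounded. Entries needed 10 counts in 3 libraries (calvaria against MC3T3) or in 2 (day trend). The edgeR 4.0.16 quasi-likelihood test (R 4.3.3) used TMM factors and a threshold of 0.05 after Benjamini-Hochberg adjustment over all entries. Its scripts were tested on simulated data. Ratios had 0.5 added to each count and were tested by exact permutation (SciPy 1.17.1). Alternatives were other scalings, filters, DESeq2 1.42.0, limma 3.58.1 on log2(RPM + 1) and log2(RPM + 10), and left-out libraries or days. Summing per mature miRNA was added after the data were seen.

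The members and lists were chosen with earlier results of these data known. Named were the cluster arms, the 5 nearest profiles of each (mean of at least 100 RPM), the smooth muscle list and miR-145b. Depth per library and its intervals are given with the results. Of the 10 blood cell, 4 endothelial and 5 nervous system marker names, 6, 2 and 4 matched the table.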

Additional observations from a re-analysis of the deposited data

How the results depend on the processing

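All 4 arms were lower in calvaria under all 20 alternatives. Leaving out day 0 and keeping days 6 to 24 are the same fit, counted as 1 of these. Without 1 library at a time, the log2 difference ranged from -1.18 to -0.82 for miR-143-3p, -0.98 to -0.70 for miR-143-5p, -1.26 to -0.996 for miR-145a-5p and -1.26 to -0.94 for miR-145a-3p, and the 2 lost calls were those of miR-143-5p without calvaria 1 or 2. Over all entries, 176 to 202 were then higher and 117 to 187 lower, the fewest lower without calvaria 1 (123) or calvaria 2 (117). With a minimum of 100 counts, 85 entries were higher and 87 lower, but of only 280 tested, against 180 and 186 of 551. Of 551 entries, 109 were lower with the DESeq2 Wald test and 119 with limma on log2(RPM + 10).

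With day, no arm was called under any setting. Signs turned for miR-143-3p (0.11) and miR-145a-3p (0.12), to -0.11 and -0.0078 on a log2(day + 1) scale, -0.036 and -0.0249 with a minimum of 100 counts, and -0.13 and -0.12 with upper quartile factors. Without 1 day at a time they ranged from -0.0811 to 0.65 and from -0.0573 to 0.33, against -0.999 to -0.07 for miR-143-5p and 0.27 to 0.91 for miR-145a-5p. Calls over all entries (6 rising and 8 falling of 469) became 20 and 14 with the DESeq2 Wald test and 47 and 56 on the log2(day + 1) scale. They were 2 and 2 of 250 entries tested with a minimum of 100 counts, and 14 and 20 of 855 with no count filter. With limma at either pseudocount they were 0 and 0 (51 and 24, and 57 and 25, at an unadjusted p under 0.05). They became 6 and 5 with library totals and 4 and 5 with summed counts, and ranged from 0 to 35 and from 2 to 40 without 1 day at a time, with most calls without day 0. The cause of these changes was not tested.

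With miR-21a-5p left out of the total, mean RPM in MC3T3 became 133042 ± 16155 for miR-143-3p, 308 ± 90.4 for miR-143-5p, 2952 ± 369 for miR-145a-5p and 801 ± 100.1 for miR-145a-3p, and 151 ± 14.2 in calvaria for miR-143-5p. By construction this raises every other miRNA.

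No ratio passed under any setting, and after adjustment no single ratio could have passed alone. Without 1 library at a time the log2 difference ranged from -0.24 to -0.08 (arms of miR-143), -0.18 to 0.0252 (arms of miR-145a), 0.08 to 0.32 (guide arms) and 0.21 to 0.40 (passenger arms), in designs whose smallest p is 0.0571 or 0.0952. No paired analysis was possible because the labels give no replicate numbers that pair samples of different groups. Each day is 1 pooled library, which limits every statement on the course over days.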

Other observations

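Among the 8 measures examined over the MC3T3 libraries (the RPM of 4 arms and 4 ratios), none passed Dixon's 95% critical value for 5 samples (0.71). The closest was the ratio of miR-143-3p to miR-145a-5p, where the gap between day 0 and its nearest neighbour took 0.699 of the range, followed by the RPM of miR-145a-5p at day 0 with 0.683. For these closest measures the value compares the day 0 library with the others. For some of the rest a later day was the extreme, as day 6 was for the RPM of miR-143-5p. The 5 libraries are different days, so none of the values is a test of a day effect.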
